A study of Homo sapiens with 18 samples.

Results

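The genes of the NF-kB system were followed through a chromatin accessibility experiment in Ccd18-Co, a human colon fibroblast line. They comprised the 5 subunit genes NFKB1, NFKB2, RELA, RELB and REL, the 3 genes of the classical IκB inhibitors NFKBIA, NFKBIB and NFKBIE, and the 2 genes of nuclear IκB proteins NFKBIZ and BCL3. A peak was taken as a member when it overlapped the body or the 10 kb upstream of one of these 10 genes in GENCODE release 44 on hg38, which gave 66 of the 334857 peaks. NFKB1 and RELB held 15 member peaks each, NFKB2 and BCL3 7 each, NFKBIZ 6, REL 5, NFKBIA 4, NFKBIB and NFKBIE 3 each, and RELA 1. The rule used no measured value.

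NF-kB dimers rest in the cytoplasm bound to inhibitors of the IκB family. Cytokines such as TNF and IL-1β activate the IκB kinase (IKK) complex, which marks the inhibitors for destruction and frees the dimers to enter the nucleus, while a slower non-canonical route through the kinase NIK (MAP3K14) leads to processing of the NFKB2 product and to RELB dimers. Many genes of the system, NFKBIA among them, are themselves NF-kB targets, and in intestinal fibroblasts the pathway drives chemokine and cytokine production.

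Bulk ATAC-seq, in which a transposase inserts adaptors into open chromatin, was carried out on 18 libraries in 3 groups of 6. Unstimulated cells received no cytokine. The other groups both received 3 pulses of TNF, OSM and IL-17A (10 ng/ml each) with IL-1β (0.1 ng/ml), each of 72 h in serum-free medium followed by 96 h of recovery, then rested for 1 week and were given DMSO, or belinostat (250 nM), an inhibitor of histone deacetylases, for 5 days, and were collected 2 weeks later. All 18 libraries came from a single cell line, nothing in the labels says that replicates were separate cultures, and p-values then measure only the spread between these samples, which may be technical. The doses are those of the labels, the text of the study gives other concentrations for belinostat and in places for IL-1β, and whether unstimulated cells received vehicle is not given in the sources used here. DMSO minus unstimulated is called the cytokine contrast, belinostat minus DMSO the belinostat contrast, and belinostat minus unstimulated the residual contrast. Each pair of contrasts shares 1 group of libraries, so their values are set side by side and are not independent of each other.

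Counts in peaks ranged from 7077321 to 11352032 per unstimulated library, from 6488975 to 8066642 per DMSO library and from 4661678 to 6370845 per belinostat library, so depth fell in the order of the groups and its part in the results was not tested. The promoter peaks of the 9 fibroblast markers examined stood at an average of 1.41 (DCN) to 5.93 (COL1A1) log2 CPM. This unit is counts scaled to library size, on the log2 scale, here with TMM factors, 1 scaling factor per library. Of the 9, DCN, COL3A1 and LUM were lowest, at 1.41, 2.28 and 2.31, so the list overlapped with markers of other cell types. PTPRC, CD79A, SPI1 and CDH5, markers of immune and endothelial cells, had no promoter peak, the 4 epithelial markers lay between -0.61 and 1.52 log2 CPM, and of the remaining immune and endothelial markers CD3E and PECAM1 lay below 0 and TEK, an endothelial receptor gene, at 2.32. With TMM factors the median of all peaks lay at a log2 fold change of 0.13 in the cytokine contrast, 0.01 in the belinostat contrast and 0.20 in the residual contrast, and strong peaks moved down while weak peaks moved up. Most results are therefore also given with loess offsets, a correction fitted to each library that varies with peak strength, under which these medians were 0.03, 0.02 and 0.06.

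All 10 genes had a promoter peak, defined as the strongest peak overlapping the region from 1000 bp upstream to 500 bp downstream of the canonical start. These peaks were 941 to 1776 bp wide with a GC content of 64.2% to 72.9%. Their sequences shared a feature that the choice of genes did not use: a 1000-base window around the centre of the promoter peak held a match to the 10-base NF-kB consensus, searched on both strands of hg38, in 10 of 10 genes, against 41.8% of the 14960 promoter peaks of protein-coding genes. The peaks behind that percentage were not matched to the 10 for GC content or strength. Of the RefSeq promoters (250 bases before to 50 after a start, GRCh38.p14), 8 of the genes had 14 entries, and 9 entries of 7 genes held a match, against 11.3% of 35116 promoters. RELB and NFKBIE are not in that table. For 9 of the genes, the match nearest to the canonical start in any peak of the promoter region is printed below in 30 bases of the hg38 plus strand, with the matched letters in capitals, because the genes of the system are themselves known targets of the factor. A match is a description of the letters and not evidence of binding.
NFKB1, chr4:102501300-102501329: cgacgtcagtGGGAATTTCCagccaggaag
NFKB2, chr10:102395674-102395703: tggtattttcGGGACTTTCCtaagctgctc
RELA, chr11:65662749-65662778: aaagcggcgcGGGGGCTCCCgccacagccg
RELB, chr19:45001395-45001424: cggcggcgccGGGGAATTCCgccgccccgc
REL, chr2:60881517-60881546: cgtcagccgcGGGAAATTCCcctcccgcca
NFKBIA, chr14:35404811-35404840: gtcaggctcgGGGAATTTCCaagccagtca
NFKBIB, chr19:38899932-38899961: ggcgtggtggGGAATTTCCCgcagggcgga
NFKBIZ, chr3:101849265-101849294: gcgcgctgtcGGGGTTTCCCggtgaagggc
BCL3, chr19:44748700-44748729: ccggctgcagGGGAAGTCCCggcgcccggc
The NFKB2 match lay not in its strongest promoter peak but in the separate peak over the canonical start (chr10:102395474-102396035). All 9 of these matches lay within 234 bp of the canonical start, and those of NFKB1, NFKB2, RELB, REL, NFKBIB and BCL3 within 54 bp. They were chosen as the nearest, so closeness is partly built in, and distances at other promoters are not given here. NFKB1 and NFKBIA carried the same 10 letters, and the NFKBIB match was the REL match read on the other strand. Over all 66 member peaks, a 300-base window around the centre held a match in 16.7%, against 8.24% of all peaks and 15.3% of peaks at starts of protein-coding genes. The AP-1 word TGANTCA, which is the same on both strands, stood in 13.6% of these member windows, against 17.8% of all peaks and 5.13% of peaks at starts of protein-coding genes.

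The cytokine contrast asks which changes remained weeks after the last pulse. Called at an adjusted p under 0.05 (edgeR's quasi-likelihood test with Benjamini-Hochberg adjustment over all peaks), 5 of the 66 member peaks opened, against 9.51% of all peaks, and 14 closed, against 9.73%. All 10 promoter peaks were among those that closed, with log2 fold changes from -0.45 to -0.28. This was a property they shared with strong peaks in general: 56.2% of all promoter peaks and 88.5% of the 8115 peaks at least as strong as the weakest of the 10 also closed. With loess offsets the same 10 changes ran from -0.06 to 0.14, 7 of the 10 turned positive, and only NFKBIB was called, as higher (0.14 ± 0.05, adjusted p = 0.0459). Of all 66 member peaks, 4 then opened, against 2.15% of all peaks, and 1 closed, against 1.76%. The direction of the family at its promoters therefore depended on the scaling.

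**Figure D1:**
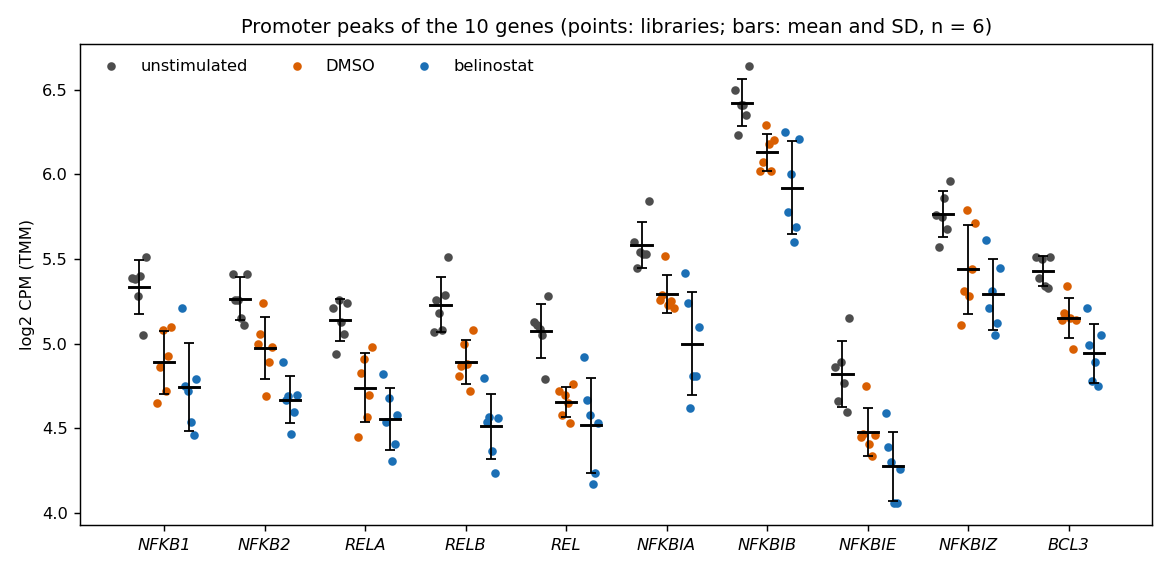
Log2 CPM (TMM factors) of the promoter peak of each of the 10 genes in every library, coloured by group, with the mean and SD of 6 libraries as bars. Each gene was highest in unstimulated and lowest in belinostat libraries by its mean, the libraries of the groups mostly overlapped, and NFKBIB stood highest at an average of 6.18 log2 CPM. With loess offsets 7 of the 10 cytokine contrasts and 4 of the 10 belinostat contrasts were above 0 instead.

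Among the subunits, NFKB1 encodes the precursor of the DNA-binding subunit of most canonical dimers. Its promoter peak (chr4:102500650-102502425, over exon 1) had a lowest, median and highest level of 5.05, 5.38 and 5.51 log2 CPM in unstimulated libraries, 4.65, 4.90 and 5.10 in DMSO libraries and 4.46, 4.73 and 5.21 in belinostat libraries. The unstimulated libraries lay highest, 1 of them within the DMSO range, and the belinostat range enclosed the DMSO range. The cytokine contrast was -0.45 ± 0.11 (SE, adjusted p = 0.00202), the belinostat contrast -0.14 ± 0.11 (adjusted p = 0.536), and with loess offsets they were -0.06 ± 0.06 and 0.04 ± 0.07. The other 14 peaks of NFKB1 all lay in introns, and 13 of them were under 1 log2 CPM. The only 1 of these called in the cytokine contrast was a 150-bp peak in intron 1 (chr4:102521236-102521385) with 19 fragments over the unstimulated, 5 over the DMSO and 19 over the belinostat libraries. It fell by 1.76 on the log2 scale (adjusted p = 0.0467) and with loess offsets by 2.31 (adjusted p = 0.023), and the belinostat contrast was 2.05 ± 0.66 (adjusted p = 0.0726). With so few fragments, libraries of every group overlapped.

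NFKB2 encodes the precursor that the non-canonical pathway processes. Its strongest promoter peak (chr10:102393915-102395028) lay upstream of the canonical start, within an intron of longer transcripts, and ran from 5.11 through a median of 5.26 to 5.41 log2 CPM in unstimulated libraries, from 4.69 through 4.99 to 5.24 in DMSO libraries and from 4.47 through 4.68 to 4.89 in belinostat libraries. Belinostat and unstimulated libraries did not overlap, while DMSO libraries overlapped with both. The cytokine contrast was -0.29 ± 0.11 (adjusted p = 0.0402), the belinostat contrast -0.32 ± 0.11 (adjusted p = 0.112) and the residual contrast -0.61 ± 0.11 (adjusted p = 4.44e-06). With loess offsets they were 0.10 ± 0.06, -0.12 ± 0.07 and -0.02 ± 0.07 (adjusted p = 0.34, 0.369 and 0.875), and none was called. The peak over the canonical start itself (chr10:102395474-102396035, exons 1 and 2) and a peak over exons 13 and 14 (chr10:102399266-102399853) also closed in the cytokine contrast, by -0.44 ± 0.12 and -0.45 ± 0.13 (adjusted p = 0.00753 and 0.00824). Neither was called with loess offsets (adjusted p = 0.569 and 0.492).

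RELA encodes the main transactivating subunit of canonical dimers, and its only member peak was the promoter peak (chr11:65662482-65664111). It spanned 4.94 to 5.26 log2 CPM in unstimulated libraries (median 5.17), 4.45 to 4.98 in DMSO libraries (median 4.76) and 4.31 to 4.82 in belinostat libraries (median 4.56). Unstimulated and belinostat libraries did not overlap. The cytokine contrast was -0.40 ± 0.11 (adjusted p = 0.00574), the belinostat contrast -0.19 ± 0.11 (adjusted p = 0.392), and both were -0.01 with loess offsets. The peak held 5 matches to the AP-1 word, the most of any member peak.

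RELB encodes the partner of the processed NFKB2 product. Of its 15 peaks, 13 were under 1 log2 CPM. The study reported on its accessibility in these libraries, so the choice of the gene is not independent of them. Its promoter peak (chr19:45001166-45002467) had a lowest, median and highest level of 5.07, 5.22 and 5.51 log2 CPM in unstimulated, 4.72, 4.87 and 5.08 in DMSO and 4.24, 4.55 and 4.80 in belinostat libraries. DMSO libraries lay between the other groups, overlapping slightly with each. The belinostat contrast was -0.39 ± 0.11 (adjusted p = 0.0369), which was lost with loess offsets (-0.20 ± 0.07, adjusted p = 0.107) and when any 1 of 10 libraries was left out. Those were unstimulated 2, DMSO 2, 3, 4 and 6 and belinostat 2 to 6, without which the adjusted p lay between 0.0515 and 0.144.

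Of the 15 RELB peaks, 4 opened in the cytokine contrast, only the promoter peak closed, and 13 lay above 0 (14 with loess offsets). Of the 38 member peaks under 1 log2 CPM, RELB included, 29 lay above 0 (21 with loess offsets). How many peaks of the whole experiment lay above 0 was not counted. Those under 1 log2 CPM had a median of 0.4 with TMM factors and 0.08 with loess offsets. The 15 RELB peaks had medians of 0.43 and 0.11, near these values. The largest rise was at a peak over exons 6 and 7 (chr19:45025180-45025621), which held 1 to 8 fragments per unstimulated library (median 3.5), 4 to 19 per DMSO library (median 8.5) and 4 to 9 per belinostat library (median 8.0). In log2 CPM every belinostat library (0.12 to 0.89) lay above every unstimulated library (-1.16 to 0.10), while the DMSO libraries (-0.27 to 1.31) overlapped with both. This peak had a cytokine contrast of 1.30 ± 0.37 (adjusted p = 0.00758) and a residual contrast of 1.28 ± 0.38 (adjusted p = 0.00702), while the belinostat contrast was -0.03 ± 0.32. Without DMSO replicate 4 the cytokine call was lost (1.01, adjusted p = 0.0719), and with loess offsets it was 1.05 ± 0.36 (adjusted p = 0.0731). The other 3 lay upstream of RELB, at chr19:44991927-44992195 (0.95 ± 0.30), chr19:44992524-44992718 (1.18 ± 0.39) and chr19:44996117-44996380 (1.10 ± 0.37), with adjusted p of 0.0163, 0.0234 and 0.0245. The first and the second of these lie in the body of the neighbouring gene CLPTM1 and cannot be assigned to either gene. None of the 4 was called with loess offsets, and 12.2% of all peaks under 1 log2 CPM opened with TMM factors.

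The third of these upstream peaks is shown because it was the only opened RELB peak with a match to the AP-1 word within the peak itself, given in capitals on the hg38 plus strand.
RELB upstream, chr19:44996117-44996380: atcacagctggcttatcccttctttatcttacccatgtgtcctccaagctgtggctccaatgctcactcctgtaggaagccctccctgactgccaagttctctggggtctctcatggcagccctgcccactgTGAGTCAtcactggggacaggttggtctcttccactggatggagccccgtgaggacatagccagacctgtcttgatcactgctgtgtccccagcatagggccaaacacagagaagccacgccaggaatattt
The match lay 4 bp from the centre of the peak. In log2 CPM the peak ran from -0.79 to 0.24 in unstimulated libraries (median -0.36), from 0.23 to 0.83 in DMSO libraries (median 0.56) and from -1.22 to 1.09 in belinostat libraries (median -0.18). The DMSO and unstimulated libraries barely overlapped, and the belinostat libraries spread over the whole range of both.

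REL encodes c-Rel, a subunit best known from lymphoid cells. Its promoter peak (chr2:60880935-60882120) was the only 1 of the 10 whose unstimulated and DMSO libraries did not overlap, at 4.79 to 5.28 log2 CPM (median 5.10) and 4.53 to 4.76 (median 4.68), while belinostat libraries ran from 4.17 to 4.92 (median 4.56). How many other promoter peaks were separated in this way was not counted, and 88.5% of equally strong peaks closed. The separation is therefore not a trait shown to be particular to REL. The cytokine contrast of the REL promoter peak was -0.43 ± 0.11 (adjusted p = 0.00347), and loess offsets brought it to -0.04 ± 0.07 (adjusted p = 0.761). A small neighbouring peak (chr2:60880719-60880880) also closed, by -0.71 ± 0.21 (adjusted p = 0.0136, with loess offsets 0.0887). The largest rise of any member peak lay in intron 4 of REL, at 2.00 ± 0.55 (adjusted p = 0.00677, with loess offsets 1.54 ± 0.55 and 0.0852). It rested on 0 to 3 fragments per unstimulated library (7 in all), 2 to 8 per DMSO library (30 in all) and 1 to 7 per belinostat library (18 in all). The call was kept when each library was left out in turn, with a log2 fold change of 1.81 to 2.46. The whole peak on the hg38 plus strand is given in lower case throughout, since it held no match to either motif.
REL intron 4, chr2:60906499-60906658: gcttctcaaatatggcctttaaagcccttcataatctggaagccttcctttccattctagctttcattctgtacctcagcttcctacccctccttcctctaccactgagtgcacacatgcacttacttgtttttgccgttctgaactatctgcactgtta

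**Figure D2:**
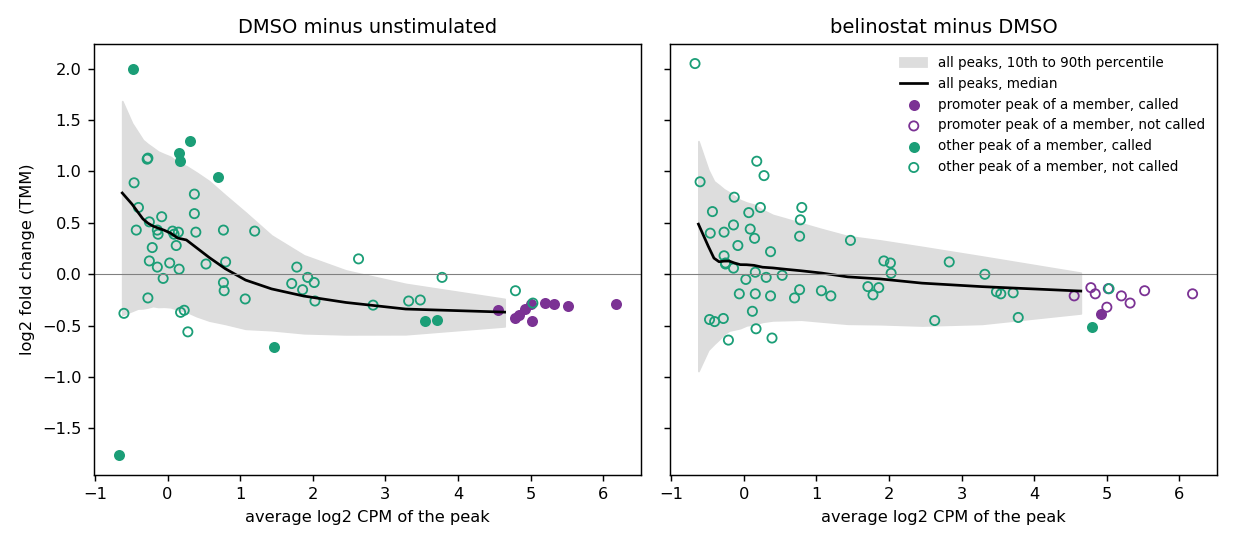
Log2 fold change (TMM factors) of each of the 66 member peaks against its average log2 CPM, in the cytokine contrast (left) and the belinostat contrast (right), with filled points for called peaks, over the median (line) and the range from the 10th to the 90th percentile (grey) of all peaks. The 10 promoter peaks sat at the strong end, where the median of all peaks was also below 0, and the 5 peaks that opened in the cytokine contrast were all under 1 log2 CPM. With loess offsets 7 of the 10 promoter peaks lay above 0 in the cytokine contrast.

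The inhibitors are the negative feedback of the pathway. NFKBIA encodes IκBα, the inhibitor resynthesised most rapidly after activation. Its promoter peak (chr14:35403757-35405116, exons 1 and 2) lay at 5.45, 5.54 and 5.84 log2 CPM (lowest, median and highest) in unstimulated libraries, 5.21, 5.25 and 5.52 in DMSO libraries and 4.62, 4.95 and 5.42 in belinostat libraries. Belinostat libraries were the most scattered and did not overlap with the unstimulated ones. The cytokine contrast was -0.29 ± 0.11 (adjusted p = 0.0374, with loess offsets 0.11 ± 0.06 and 0.239) and the belinostat contrast -0.28 ± 0.11 (adjusted p = 0.169, with loess offsets -0.09 ± 0.06 and 0.502). Its 3 upstream peaks had log2 fold changes between -0.16 and 0.05 in the cytokine contrast and were not called in any contrast.

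NFKBIB encodes IκBβ, and its promoter peak (chr19:38899358-38900298) was the strongest of the 10, above 98.2% of the promoter peaks of protein-coding genes. It also covers the promoter and part of the body of SIRT2, a deacetylase gene, and cannot be assigned to either. It ran from 6.23 through 6.41 to 6.64 log2 CPM in unstimulated, from 6.02 through 6.13 to 6.29 in DMSO and from 5.60 through 5.89 to 6.25 in belinostat libraries, where the ranges of neighbouring groups overlapped. It was the single promoter peak called with opposite signs under the 2 scalings, at -0.29 ± 0.10 (adjusted p = 0.0299) with TMM factors and 0.14 ± 0.05 with loess offsets in the cytokine contrast, and at -0.49 ± 0.10 (adjusted p = 9.69e-05) and 0.17 ± 0.05 (adjusted p = 0.0133) in the residual contrast.

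NFKBIE encodes IκBε, and its promoter peak (chr6:44264830-44265881) was the weakest of the 10. It spanned 4.60 to 5.15 log2 CPM in unstimulated libraries (median 4.81), 4.34 to 4.75 in DMSO libraries (median 4.45) and 4.06 to 4.59 in belinostat libraries (median 4.28). Neighbouring groups overlapped, and unstimulated and belinostat libraries did not. IκBε's promoter peak had a cytokine contrast of -0.35 ± 0.11 (adjusted p = 0.0189, with loess offsets 0.03 ± 0.07). Its 2 upstream peaks, which lie in TMEM151B, were not called.

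The nuclear IκB proteins act on transcription itself. NFKBIZ encodes IκBζ, a coactivator of inflammatory genes that IL-1 and IL-17 are known to induce. Its promoter peak at the canonical start (chr3:101848890-101850215) ran from 5.57 to 5.96 log2 CPM in unstimulated libraries (median 5.75), from 5.11 to 5.79 in DMSO libraries (median 5.38) and from 5.05 to 5.61 in belinostat libraries (median 5.26). The cytokine contrast was -0.31 ± 0.11 (adjusted p = 0.0267, with loess offsets 0.09 ± 0.05), and every pair of groups overlapped. An upstream alternative start had a peak of its own (chr3:101827135-101828158) at an average of 3.32 log2 CPM, where the cytokine contrast was -0.26 ± 0.14 (adjusted p = 0.164) and the belinostat contrast was close to 0 (SE 0.14, adjusted p = 0.994). That peak lies inside NXPE3, and neither it nor any other NFKBIZ peak was called apart from the promoter peak.

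The promoter calls of the cytokine contrast were close to the threshold for most genes. Those of NFKB1, RELA and REL were kept when each of the 18 libraries was left out in turn. The other 7 were lost without unstimulated replicate 6, the library with the most peaks at 0 counts (11.3% of peaks), with adjusted p between 0.0861 and 0.146. Leaving out unstimulated replicate 1 lost 6 of them, DMSO replicate 1 or unstimulated replicate 4 lost 5, DMSO replicates 2, 4 or 5 or unstimulated replicate 3 lost 4, DMSO replicate 6 lost 3 and unstimulated replicate 5 lost 2. A scaling factor per library cancels in the percent of all member counts that fell in the 10 promoter peaks, while loess offsets do not. This percent was 67.6% to 69.7% in unstimulated libraries (median 68.1%), 63.3% to 66.8% in DMSO libraries (median 65.5%) and 61.6% to 66.2% in belinostat libraries (median 64.3%). Every unstimulated library lay above every library of the other groups, and DMSO and belinostat libraries overlapped. This share sets strong peaks against mostly weak ones, and among all peaks strong ones also moved down and weak ones up. The same share was not computed for other genes, so it is not a trait shown to be particular to the members.

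The belinostat contrast asks what the inhibitor changed in cells that had received the cytokines. No member peak opened, against 0.607% of all peaks, with 4 at an unadjusted p under 0.05, and 2 of 66 closed, against 1.75%, a share near that of all peaks. DESeq2 called none as opened and 3 as closed, beside 1081 and 5729 of 127108 peaks. With loess offsets none opened, against 1.03%, and 1 closed, against 1.42%. The 2 that closed were the RELB promoter peak described above, beside 0.749% of all promoter peaks and 7.84% of equally strong peaks, and a peak in intron 2 of BCL3.

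BCL3 encodes a nuclear IκB protein that binds dimers of the processed NFKB1 and NFKB2 products. The peak in its intron 2 (chr19:44753089-44753794, 706 bp) had its centre 4734 bp downstream of the canonical start, at an average of 4.79 log2 CPM, which is the strength of a promoter peak. Its levels were 4.82, 5.04 and 5.22 log2 CPM (lowest, median and highest) in unstimulated libraries, 4.57, 4.88 and 5.14 in DMSO libraries and 4.08, 4.38 and 4.56 in belinostat libraries. Every belinostat library lay below every library of the other groups, by a narrow margin to the lowest DMSO library, and the other groups overlapped with each other. The belinostat contrast was -0.51 ± 0.11 (adjusted p = 0.00196) with TMM factors and -0.33 ± 0.08 (adjusted p = 0.00293) with loess offsets, and the call was kept when each library was left out in turn (-0.57 to -0.45, adjusted p up to 0.0258). It was lost only with TMM factors from the weaker 50% of peaks (-0.61, adjusted p = 0.123).

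The central 300 bases of this peak on the hg38 plus strand are given because they held a match to the NF-kB consensus, in capitals, 12 bp from the centre of the peak.
BCL3 intron 2, chr19:44753292-44753591: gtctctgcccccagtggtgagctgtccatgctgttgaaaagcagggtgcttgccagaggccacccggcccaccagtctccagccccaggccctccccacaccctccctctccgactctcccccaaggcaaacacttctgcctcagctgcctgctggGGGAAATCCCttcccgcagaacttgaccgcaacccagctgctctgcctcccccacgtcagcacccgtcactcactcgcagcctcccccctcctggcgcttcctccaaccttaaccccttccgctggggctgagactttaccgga
Such a match stood in 8.24% of all 300-base windows around peak centres, and 10 other member peaks held 1.

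The other peaks inside BCL3 moved in the same direction without being called. The next peak in intron 2 (chr19:44754121-44754695) had medians of 3.82, 3.95 and 3.41 log2 CPM in unstimulated, DMSO and belinostat libraries, with a belinostat contrast of -0.42 ± 0.13 (adjusted p = 0.0668). A peak over exon 5 (chr19:44757313-44757607) had medians of 2.63, 2.84 and 2.39, with -0.45 ± 0.16 (adjusted p = 0.119). The promoter peak (chr19:44747258-44748947) ran from 5.33 to 5.51 log2 CPM in unstimulated libraries (median 5.45), from 4.97 to 5.34 in DMSO libraries (median 5.15) and from 4.75 to 5.21 in belinostat libraries (median 4.94). Its belinostat contrast was -0.21 ± 0.11 (adjusted p = 0.327, with loess offsets -0.01 ± 0.06), its cytokine contrast -0.28 ± 0.10 (adjusted p = 0.0435, with loess offsets 0.12 ± 0.06), and the 3 peaks upstream of it lay between -0.17 and 0.12 in the belinostat contrast. Whether the peaks inside the gene fell more than the promoter peak was not tested. The farthest of these upstream peaks (chr19:44741768-44742387) was as strong as a promoter at an average of 5.03 log2 CPM, and its belinostat contrast was -0.14 ± 0.11.

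In the cytokine contrast the 3 peaks inside BCL3 depended on the scaling. With TMM factors they were at -0.16 ± 0.11, -0.03 ± 0.12 and 0.15 ± 0.15 and none was called, whereas with loess offsets they were called as higher, at 0.22 ± 0.07, 0.32 ± 0.09 and 0.43 ± 0.13 (adjusted p = 0.0357, 0.0227 and 0.0455). Together with the NFKBIB promoter peak, these were the 4 member peaks that opened with loess offsets. The 3 peaks were grouped after their values had been seen. A scaling factor per library cancels in their share of all counts in BCL3 peaks, but loess offsets, which vary with peak strength, do not. The share is not free of that trend with strength and is given as a description with no test. It was 32.6% to 36.7% in unstimulated libraries (median 34.6%), 34.2% to 41.0% in DMSO libraries (median 37.4%) and 30.8% to 34.1% in belinostat libraries (median 32.4%). DMSO replicates 1, 2 and 6 lay between 39.8% and 41.0%, above every other library, DMSO replicates 3, 4 and 5 lay between 34.2% and 35.1%, within the unstimulated range, and all belinostat libraries lay below all DMSO libraries.

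**Figure D3:**
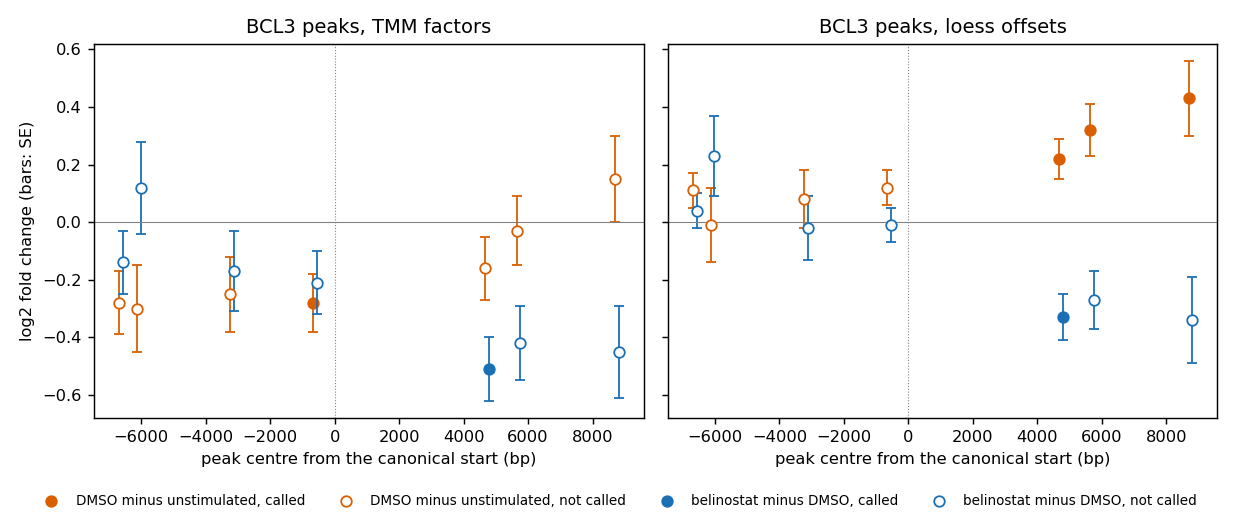
Log2 fold change with its standard error of the 7 BCL3 peaks against the distance of the peak centre from the canonical start in bp, for the cytokine contrast (orange) and the belinostat contrast (blue), with TMM factors (left) and loess offsets (right), filled where called. The 3 peaks inside the gene lay lowest in the belinostat contrast under both scalings, from -0.51 to -0.42 and from -0.34 to -0.27, and with loess offsets they were called as higher in the cytokine contrast.

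**Figure D4:**
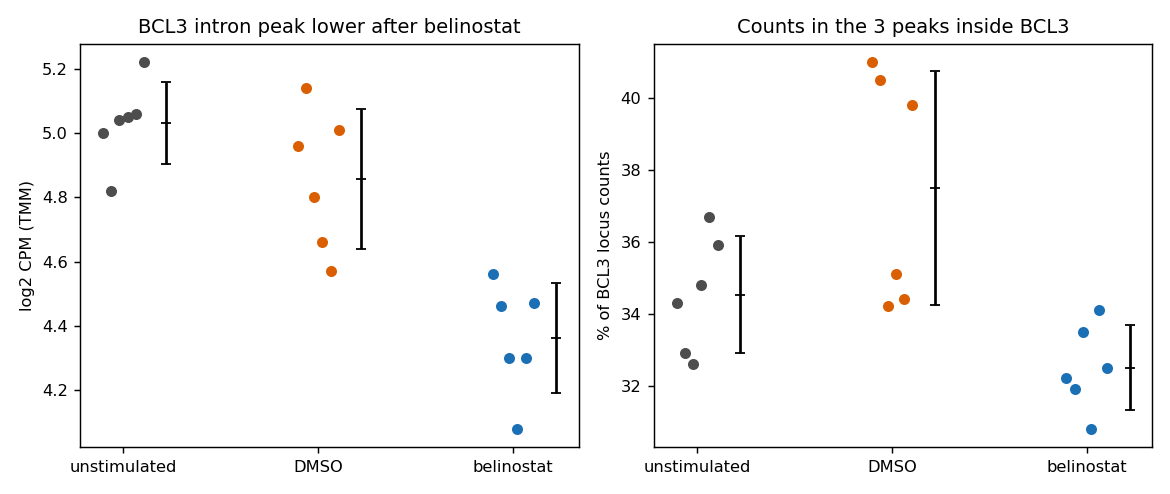
Level of the BCL3 intron 2 peak in log2 CPM with TMM factors (left) and percent of the counts in BCL3 peaks that fell in the 3 peaks inside the gene (right), for each library, with the mean and SD of 6 libraries. Belinostat libraries lay below all others on the left (at most 4.56) and below all DMSO libraries on the right (at most 34.1%).

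The residual contrast asks how cells given cytokines and belinostat differed from unstimulated cells. Of the 66 member peaks, 9 opened, against 16.8% of all peaks, and 16 closed, against 13.7%. The 16 included all 10 promoter peaks, at -0.73 (RELB) to -0.47 (NFKBIZ), while 65.8% of promoter peaks and 98.6% of equally strong peaks also closed. With loess offsets, 1 member peak opened (NFKBIB), against 4.42% of all peaks, and none closed, against 4.31%. The lowest unadjusted p of a fall with loess offsets belonged to the RELB promoter peak, the only 1 under 0.05, at -0.15 ± 0.07 (adjusted p = 0.162). All 9 peaks that opened were under 1 log2 CPM, where 22.1% of all peaks opened, and 6 of them belonged to RELB, 2 to NFKB1 and 1 to REL. The NFKB1 peak with the smaller p (chr4:102561400-102561713, intron 5) was at 1.15 ± 0.42 (adjusted p = 0.0286, with loess offsets 0.69 and 0.283).

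Counts were also summed over all peaks of a gene, the body and the 10 kb upstream together, for 19180 protein-coding genes. In the cytokine contrast none of the 10 loci was called in either direction, while 20.2% of loci were higher and 13.4% lower, with RELB at 0.14 ± 0.07 and RELA at -0.16 ± 0.06 the only ones at an unadjusted p under 0.05 (adjusted p = 0.0956 and 0.0522). In the belinostat contrast BCL3 alone was called, as lower, where 3.93% of loci were, while 1.92% were higher. Its locus stood at 7.17 to 7.22 log2 CPM in unstimulated libraries (median 7.20), 7.03 to 7.37 in DMSO libraries (median 7.24) and 7.00 to 7.13 in belinostat libraries (median 7.03). The belinostat libraries lay below the unstimulated ones and overlapped with the DMSO libraries, which had the widest range. The contrast was -0.18 ± 0.04 (adjusted p = 0.0108) with TMM factors and -0.13 ± 0.04 (adjusted p = 0.0369) with loess offsets, where 2.62% of loci were lower. The other 9 loci lay between -0.13 and 0.01. In the residual contrast 5 loci were lower, against 25.1% of all loci, and none was higher, against 27.6%. These were RELA at -0.26 ± 0.07, NFKB2 at -0.23 ± 0.05, and NFKBIA, NFKBIB and BCL3 at -0.15 each. With loess offsets fitted to the gene sums RELA and NFKB2 were still called, beside 17.8% of all loci. The RELA locus holds only its promoter peak, so both levels rest on the same counts. With loess offsets its residual contrast was -0.27 ± 0.07 (adjusted p = 0.0028) as a locus and -0.02 ± 0.07 (adjusted p = 0.863) as a peak. The RELA call therefore depended on the level at which the offsets were fitted.

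Upstream of the dimers, the 11 genes of IKK and its upstream kinases were described at the same level. In the cytokine contrast 3 were higher (TAB2, IKBKE and IKBKB) and 2 lower (MAP3K14 and MAP3K7), with a median of -0.01, beside 20.2% of all loci higher and 13.4% lower, so these counts lay near the background. In the belinostat contrast none was higher and 3 were lower, with a median of -0.09, beside 1.92% of all loci higher and 3.93% lower. MAP3K14, which encodes NIK, the kinase of the non-canonical route, lay at 7.51 to 7.61 log2 CPM in unstimulated libraries (median 7.56), 7.30 to 7.49 in DMSO libraries (median 7.40) and 7.09 to 7.26 in belinostat libraries (median 7.14), with no overlap between any of the groups. It was lower by -0.16 ± 0.03 in the cytokine contrast and by -0.24 ± 0.04 in the belinostat contrast (adjusted p = 0.00148 and 0.000382). IKBKB, which encodes a catalytic subunit of IKK, and IKBKE, a related kinase gene, were higher in the cytokine contrast (0.14 ± 0.05 and 0.15 ± 0.05, adjusted p = 0.0383 and 0.0132) and lower in the belinostat contrast (-0.25 ± 0.05 and -0.20 ± 0.05, adjusted p = 0.00567 and 0.013). The DMSO libraries enter both contrasts, so these signs are not independent. In the residual contrast IKBKB was at -0.12 ± 0.05 (adjusted p = 0.0684) and IKBKE at -0.05 ± 0.05 (adjusted p = 0.382). All 8 of these calls were kept with loess offsets.

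Of the 16 adaptors and feedback regulators, 1 was higher (TRAF2) and 3 lower (TRAF6, OTULIN and TRAF1) in the cytokine contrast, where 20.2% of all loci were higher and 13.4% lower. In the belinostat contrast 1 was higher and 1 lower, where 1.92% and 3.93% of all loci were. NFKBID, which encodes a further nuclear IκB protein, rose from 4.90 to 5.11 log2 CPM in DMSO libraries (median 4.96) to 5.11 to 5.27 in belinostat libraries (median 5.21), with the ranges meeting at 5.11 but not crossing. The contrast was 0.23 ± 0.06 (adjusted p = 0.0194, with loess offsets 0.0215). CYLD, a deubiquitinase that restrains the pathway, was lower by -0.16 ± 0.05 (adjusted p = 0.0408), a call that loess offsets lost (adjusted p = 0.0861), as they did those of OTULIN and TRAF1 in the cytokine contrast. In the residual contrast 4 of these genes were higher and 4 lower (3 and 3 with loess offsets), and of the kinases 2 were higher and 5 lower (1 and 3 with loess offsets, which lost CHUK, RIPK1 and IKBKG), beside 27.6% of all loci higher and 25.1% lower with TMM factors. With loess offsets 4007 of all 19180 loci were higher and 3406 lower. The median of the 16 adaptors and feedback regulators lay at -0.02 in the cytokine contrast and -0.01 in the belinostat contrast, beside -0.02 and 0.01 for all loci.

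**Figure D5:**
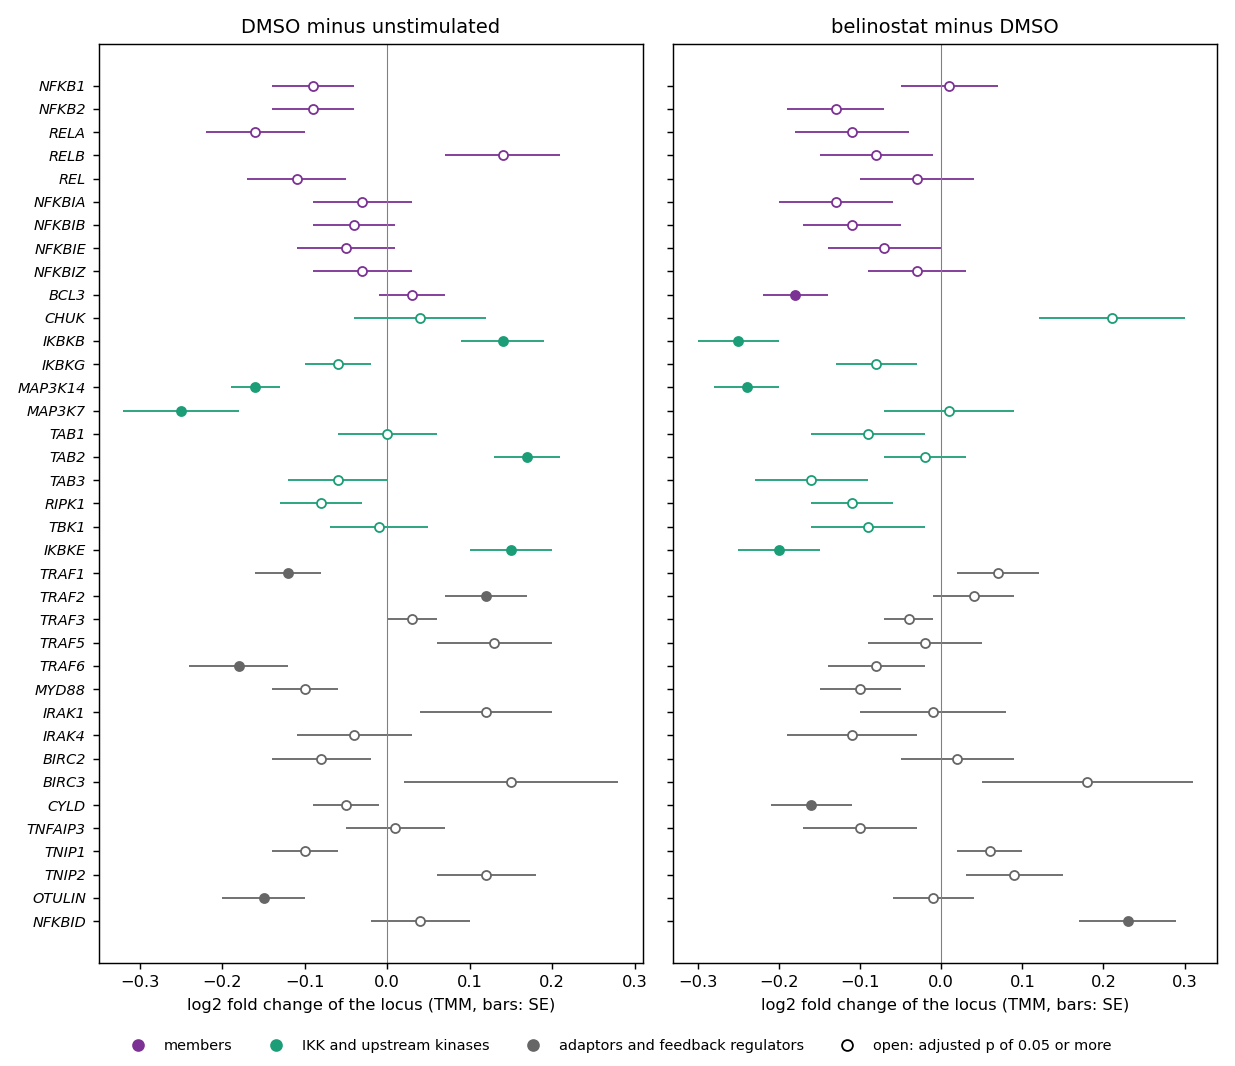
Log2 fold change with its standard error of the locus sums (TMM factors) of the 10 members, the 11 kinases and the 16 adaptors and regulators, in the cytokine contrast (left) and the belinostat contrast (right), with filled points for called loci. No member was called on the left, BCL3 alone was called on the right, and IKBKB and IKBKE lay above 0 on the left and below 0 on the right.

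Over the 18 libraries, the loci of the 10 genes varied together only in part. Pearson's r of the locus log2 CPM ranged over the 45 pairs from -0.40 (REL and RELB) to 0.66 (BCL3 and NFKB2), with a median of 0.31. The points share groups, depth and scaling, and the values are descriptive. Among genes on other chromosomes, the locus most like BCL3 was DCP1B (r = 0.92), that most like NFKBIB was ATRIP (r = 0.92) and that most like NFKB2 was SMARCC1 (r = 0.90), whereas the closest to NFKB1, ALG14, reached 0.80. Each of these is the highest r among 10443 to 10892 genes searched, so a high value is built into the choice.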

How the data were processed

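Per the labels and the methods of the study, the authors ran the ENCODE ATAC-seq pipeline on hg38, called peaks with MACS2, removed blacklisted regions, merged peaks across conditions and counted fragments per library with csaw. ChIPseeker 1.34.1 is named in the submitters' processing notes. The deposited table holds these whole-number counts, 334857 peaks by 18 libraries, not normalized, and all its columns were used. The authors scaled on reads in 10 kb background bins, which were not used here. TMM factors over the peaks were used instead.

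Peaks with an average log2 CPM of at most -3 would have been removed, and none was. Counts were fitted over all peaks and all 18 libraries (6 per group, from the labels, which name no batch) with edgeR 4.0.16 (glmQLFit and glmQLFTest) in R 4.3.3, with Benjamini-Hochberg adjustment over all peaks and calls at an adjusted p under 0.05. Levels are log2 CPM with a prior count of 2. Counts summed over the peaks of each protein-coding gene were fitted in the same way. Fold changes are log2 with standard errors. The fits were tested on simulated counts. Same-group libraries differed by more than sampling noise in all 45 pairs (chi-square per degree of freedom 1.03 to 2.88).

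Alternatives were loess offsets (limma 3.58.1 and edgeR), library totals, TMM over peak counts summed in 10 kb bins, TMM over the weaker 50% of peaks, DESeq2 1.42.0, a filter at log2 CPM 0, a replicate block, the 2 compared groups only, a 3 kb upstream window, and leaving out each library. Named peaks were, by rule, the promoter peak of each gene, every member peak called in the belinostat contrast and, per gene and direction, the called peak with the smallest p in the other contrasts, beside any gene of the lists and the gene on another chromosome whose locus correlated best with each member. Further peaks of NFKB1, NFKB2, RELB, REL, NFKBIZ and BCL3 were named after their values were seen. The members and lists were chosen with earlier results of these data known. The sequence of 1 further motif match is not reported here.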

Additional observations from a re-analysis of the deposited data

Results flagged for a closer look

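Of the 75 groups of 6 libraries tested over 25 levels (10 locus sums and 15 named peaks), 4 held a library set apart from the rest of its group by more than Dixon's 95% critical value for 6 samples (the gap to the nearest library over the whole range), and chance alone gives about 5%. In DMSO replicate 3 the NFKBIA promoter peak stood at 5.52 log2 CPM, with the next library at 5.29, and the NFKBIE promoter peak at 4.75, with the next at 4.47. The RELB locus was lowest in belinostat replicate 1, at 5.33 beside a next value of 5.57. The NFKBIA locus was highest in unstimulated replicate 6, at 5.78 beside 5.69.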

How the results depend on the processing

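The number of member peaks called depended on the scaling. In the cytokine contrast, opened and closed peaks numbered 9 and 2 with library totals, 1 and 23 with TMM over the weaker 50% of peaks, and 3 and 7 with DESeq2, 9 closed with TMM over 10 kb bins, 1 closed with loess offsets, and 2 opened with 3 kb upstream. Among all 334857 peaks, 54265 opened and 10894 closed with library totals, and 7304 and 87729 with TMM over the weaker 50%. DESeq2 called 15215 as opened and 18587 as closed, and 26175 closed with 10 kb bins. In the belinostat contrast 0 closed with weaker-peak TMM, 1 with loess offsets and 1 with only the 2 groups compared, beside 3269, 4766 and 4841 of all peaks. In the residual contrast 18 opened with library totals, 3 with DESeq2 and 1 with loess offsets (0 closed), and 0 opened and 26 closed with weaker-peak TMM. Of all peaks, 101897 opened with library totals and 41551 with DESeq2, while 8607 opened and 104529 closed with weaker-peak TMM. Loci called lower numbered 6 with 10 kb bins and 10 with weaker-peak TMM in the cytokine contrast, 0 with weaker-peak TMM in the belinostat contrast, and 3 with library totals, 9 with bins, 10 with weaker-peak TMM and 2 with loess offsets in the residual contrast. Apart from loess offsets, the numbers over all loci under these scalings are not given here. The cause of these differences between scalings was not tested.

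Signs turned as follows. With loess offsets the cytokine contrast of the promoter peaks became 0.10 for NFKB2, 0.06 for RELB, 0.11 for NFKBIA, 0.14 for NFKBIB, 0.03 for NFKBIE, 0.09 for NFKBIZ and 0.12 for BCL3. The belinostat contrast became 0.04 for NFKB1 and REL, 0.02 for NFKBIB and 0.05 for NFKBIZ, and the residual contrast 0.03 for NFKBIA, 0.17 for NFKBIB, 0.14 for NFKBIZ and 0.11 for BCL3. The BCL3 intron 2 peak became 0.05 with library totals and 0.22 with loess offsets in the cytokine contrast, the RELB peak over exons 6 and 7 0.06 with library totals in the belinostat contrast, and the NFKB1 intron 5 peak -0.04 with weaker-peak TMM in the cytokine contrast. With loess offsets the loci became 0.02 for NFKBIA, 0.01 for NFKBIB and 0.02 for NFKBIZ in the cytokine contrast and 0.03 for NFKBIZ in the residual contrast. With 10 kb bins and weaker-peak TMM they became -0.04 and -0.17 for NFKB1 (belinostat contrast), -0.01 and -0.53 for RELB and -0.12 and -0.64 for BCL3 (cytokine contrast), and -0.14 and -0.81 for RELB (residual contrast, -0.07 with 3 kb upstream).

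Leaving out each library in turn gave 3 to 6 opened and 5 to 15 closed peaks in the cytokine contrast, 0 to 2 and 1 to 5 in the belinostat contrast, and 2 to 12 opened in the residual contrast. The most closed in the belinostat contrast, 5, came without belinostat replicate 1. Loci ranged from 0 to 1 higher and 0 to 1 lower in the cytokine contrast and from 3 to 6 lower in the residual contrast. In the belinostat contrast the loci of NFKB1 (-0.02 to 0.04), REL (-0.06 to 0.01) and NFKBIZ (-0.06 to 0.02) and the RELB peak over exons 6 and 7 (-0.18 to 0.26) changed sign. With the replicate number as a block, 5 member peaks opened and 15 closed in the cytokine contrast and no count moved by over 1.5 times. Same-numbered libraries did not deviate together (r -0.133 to 0.106, 1 of 18 pairs over 0.1). In 4 of 18 comparisons of a library with the 6 of another group, the closest library had the same number. This gave no sign that the numbers pair the libraries. It cannot exclude pairing, since 238899 of the 334857 peaks compared were under 1 log2 CPM, with few fragments each. Depth limits the weak peaks most, since the 38 member peaks under 1 log2 CPM held 2.39 to 10.2 fragments per library on average.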

Other observations

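Among 12 textbook NF-kB targets described by their locus sums, 1 was higher and 2 lower in the cytokine contrast, where 20.2% of all loci were higher and 13.4% lower. PTGS2, which encodes the inducible prostaglandin synthase COX-2, ran from 2.96 to 3.41 log2 CPM in unstimulated libraries (median 3.10), from 4.28 to 4.69 in DMSO libraries (median 4.61) and from 4.26 to 4.51 in belinostat libraries (median 4.41). Every unstimulated library lay below every library of the other groups, which overlapped. PTGS2 changed by 1.46 ± 0.09 in the cytokine contrast (edgeR's quasi-likelihood test, Benjamini-Hochberg adjusted p = 1.82e-11) and was at -0.16 ± 0.09 in the belinostat contrast (adjusted p = 0.278). SOD2, a mitochondrial superoxide dismutase gene, and VCAM1, an adhesion molecule gene, were lower in the cytokine contrast, by -0.14 and -0.26 (adjusted p = 0.0145 and 0.0209), and with loess offsets the call of SOD2 was lost (adjusted p = 0.0592). None of the 12 was called in the belinostat contrast under either scaling. In the residual contrast PTGS2, CXCL3 and CXCL8 were higher and SOD2, CCL2 and VCAM1 lower, shares close to the 27.6% of all loci that were higher and the 25.1% that were lower. With loess offsets PTGS2 alone remained higher and the same 3 were lower, beside 4007 higher and 3406 lower of all 19180 loci.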
